A study of Drosophila melanogaster with 3 samples.

Results

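The genes described here encode the proteins of the small subunit of the cytoplasmic ribosome in Drosophila melanogaster. They are the protein-coding genes whose symbol begins with RpS and a digit, together with sta (stubarista), and they number 39 of the 13945 protein-coding genes on chromosomes 2L, 2R, 3L, 3R, 4 and X. The list includes copies that arose by duplication and leaves out the mitochondrial ribosome. Binding of Hybrid male rescue (Hmr) to chromatin was measured by immunoprecipitation and sequencing (ChIP-seq) in 3 biological replicates of whole embryos, aged 0 to 24 h, with males and females pooled. All embryos came from 1 transgenic line in which Hmr was fused at its C-terminal end to green fluorescent protein (GFP) and expressed stably, and the protein was pulled down with an antibody against GFP from chromatin sonicated to 200 to 800 bp. The labels give neither the promoter of the transgene nor the state of the endogenous Hmr gene. With a single group of embryos, conditions could not be compared.

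The small subunit binds the messenger RNA and decodes it, with a head, a body and a platform built from ribosomal RNA and its proteins. Most of these genes are expressed in all cells, and loss of 1 copy of many of them gives the Minute phenotype of slow growth and short, thin bristles. Their transcripts typically begin at a TCT initiator, a run of pyrimidines in which transcription starts at the C. Hmr binds DNA and chromatin, causes lethality of hybrid males when fly species are crossed, and is found with its partner Lhr and with HP1 at heterochromatin.

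Promoter stretches of 6 of the 7 strongest small subunit genes show the letters that lay under the summits, that is, the positions of highest signal in the peaks. The stretch of the fourth strongest, RpS16, is not printed. Each stretch covers 90 bases upstream of an annotated start and 30 bases from it, read 5′ to 3′ in the direction of the gene, from the Release 6 genome (dm6). Capitals mark the TCT initiator (a pair of pyrimidines, CTTT and another pair of pyrimidines, within 20 bp of the start), the DNA replication-related element (DRE, TATCGATA), and a sequence of 10 letters, CGCAGCCAAC or its reverse complement. RpS27 lies at chr3R:25247443-25247562 on the minus strand, RpS10b at chrX:19597950-19598069 on the plus strand, RpS25 at chr3R:11216258-11216377 on the minus strand, RpS4 at chr3L:13041711-13041830 on the plus strand, RpS21 at chr2L:2856021-2856140 on the plus strand and RpS28b at chrX:9554533-9554652 on the plus strand. The summits lay 37, 34, 57, 14, 51 and 32 bp upstream of the printed starts, in the same order of genes. Where a gene has several annotated starts, the stretch follows the start with the initiator, so positions given later from the nearest start can differ.
RpS27: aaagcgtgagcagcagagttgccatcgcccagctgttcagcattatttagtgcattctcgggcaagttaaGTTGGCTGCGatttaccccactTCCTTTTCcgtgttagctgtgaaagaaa
RpS10b: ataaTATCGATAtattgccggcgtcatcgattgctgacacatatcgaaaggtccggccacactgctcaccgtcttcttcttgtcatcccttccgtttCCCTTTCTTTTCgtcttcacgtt
RpS25: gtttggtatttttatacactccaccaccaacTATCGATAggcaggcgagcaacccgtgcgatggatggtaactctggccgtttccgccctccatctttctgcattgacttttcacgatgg
RpS4: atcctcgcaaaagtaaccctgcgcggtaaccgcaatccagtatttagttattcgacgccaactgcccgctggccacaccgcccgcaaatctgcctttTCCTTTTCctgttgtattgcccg
RpS21: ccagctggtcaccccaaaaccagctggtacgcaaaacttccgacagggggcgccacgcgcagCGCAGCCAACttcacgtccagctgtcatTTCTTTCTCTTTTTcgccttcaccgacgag
RpS28b: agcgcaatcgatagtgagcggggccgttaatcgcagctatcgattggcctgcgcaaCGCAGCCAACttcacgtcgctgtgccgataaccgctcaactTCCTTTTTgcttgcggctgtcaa

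Hmr-GFP summits lay at the starts of most small subunit genes. An optimal summit, meaning a summit in the authors' final list of 8131 peaks, lay within 250 bp of a start in 32 of the 39 genes (82.1%), against 3260 of all 13945 protein-coding genes (23.4%). Large subunit protein genes had one in 45 of 54 (83.3%), mitochondrial small subunit genes in 11 of 26 (42.3%). Because whole embryos were used, binding in fewer cells and weaker binding in each cell cannot be told apart, and sequencing depth is unknown, so no interval for counting error can be given. No test was made across genes, which are not replicates, and the shares stand beside the background share only.

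The summits were found in the replicates taken alone. In 30 small subunit genes (76.9%) the optimal summit was matched in all 3 replicates, meaning that an entry among the 8131 strongest of that replicate's list had its summit within 200 bp, against 15.5% of all protein-coding genes. The other 2 genes were matched in 1 replicate each. Among the 8131 strongest entries of replicate 1, 31 genes had an entry at a start (79.5%, against 22.4% of protein-coding genes). The count was 33 in replicate 2 (84.6%, against 23.5%) and 35 in replicate 3 (89.7%, against 27.6%). The relaxed list made from the pooled replicates had an entry at 34 genes (87.2%, against 36.3%).

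**Figure D1:**
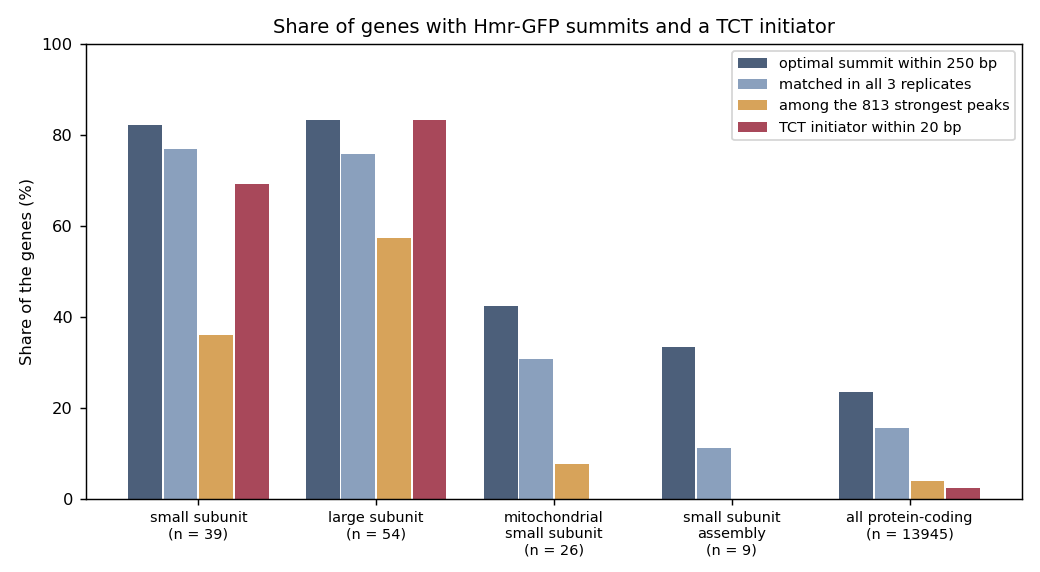
Share of genes (percent) with an optimal summit within 250 bp of a start, with that summit matched in all 3 replicates, with a summit among the 813 strongest peaks, and with a TCT initiator, in 5 gene lists. Each bar is 1 share without error; small subunit genes stood at 82.1%, 76.9%, 35.9% and 69.2%, against 23.4%, 15.5%, 3.99% and 2.42% of all protein-coding genes.

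The peaks at small subunit genes were strong within the list, though not the strongest of the ribosomal genes. Their signal, the authors' own value for each peak, had a median of 603 (169 to 2463), against 981 at large subunit genes and 348 over all protein-coding genes with a summit. Their median rank was 1204 (52 to 7298), against 479 and 2931.5. Among the 813 strongest peaks were those of 14 small subunit genes (35.9%), against 31 large subunit genes (57.4%) and 3.99% of all protein-coding genes. A summit above the median signal of the list lay at 28 of the 39 small subunit genes, against 2124 of all 13945 protein-coding genes (15.2%). Counted only among genes that had any optimal summit, these were 28 of 32 and 2124 of 3260, a much smaller contrast.

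Genes for proteins of the head of the subunit and of its body and platform had summits about equally often. A summit was present in 16 of 19 head genes (84.2%) and in 16 of 20 body and platform genes (80%). The share over all protein-coding genes was 23.4%. The median rank was 685 in the head genes and 1254 in the body and platform genes, with ranges of 232 to 7298 and 52 to 4430 that overlapped. Of the 14 genes among the 813 strongest peaks, 9 belonged to the head and 5 to the body and platform. These were 47.4% and 25% of the genes of each group, against 3.99% of all protein-coding genes.

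The strongest peak belonged to RpS27, which encodes a zinc-finger protein of the platform. This peak, at chr3R:25247332-25247807, had a signal of 2463 and rank 52 in the optimal list, and its entry had rank 177 in replicate 1, 35 in replicate 2 and 39 in replicate 3. Its signal was 483 in replicate 1, 1015 in replicate 2 and 980 in replicate 3, whose lists had median signals of 34.2, 29.9 and 35.6. All 3 replicates thus placed RpS27 far above the middle of their lists, with replicate 1 the lowest. The start of Nup37, a nuclear pore gene, lay 144 bp from that of RpS27 on the other strand, so the summit lay within 250 bp of both.

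Among genes for proteins of the head, RpS10b, RpS25, RpS16, RpS28b, RpS29 and RpS20 stood among the 10 strongest. RpS10b, whose protein lies near the entry of the messenger RNA, had rank 232 in the optimal list, and 224, 203 and 306 in replicates 1, 2 and 3. RpS25 had rank 275, and 483, 267 and 202 in the replicates. RpS16, whose protein reaches toward the decoding site, had rank 294, and 601, 227 and 247 in the replicates. These 3 genes thus stood in the upper 1000 entries of every replicate, as did the rest of the 10 strongest except RpS28b. RpS28b, for a protein near the exit of the messenger RNA, had rank 419, and 1201, 359 and 289 in the replicates. RpS29, for a zinc-binding protein, had rank 453, and 738, 522 and 332. RpS20 had rank 578, and 807, 497 and 625. Replicate 1 gave the lowest place to each of these genes except RpS10b, which was lowest in replicate 3.

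Among genes for body and platform proteins, RpS4 had rank 312, and 297, 362 and 260 in replicates 1, 2 and 3. RpS21, also known as oho23B, whose loss lets blood-forming tissue overgrow, had rank 364, and 819, 272 and 335 in the replicates. The gene sta encodes the protein known as RpSA, a homologue of the mammalian laminin receptor, and it had rank 628, and 480, 998 and 593 in the replicates. The 3 replicates of RpS4 lay closer together than those of RpS21 and sta. Of the 32 genes with an optimal summit, 19 had their lowest place in replicate 1, 11 in replicate 2 and 2 in replicate 3. Their median rank was 1427.5 in replicate 1, 1015.5 in replicate 2 and 974 in replicate 3. Over every small subunit gene with an entry in the replicate, called or not, it was 1519, 1026 and 974. For all protein-coding genes with an entry it was 5768, 5019 and 5319, so replicate 1 gave the lowest place there too. Lowest places were not counted over all protein-coding genes.

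**Figure D2:**
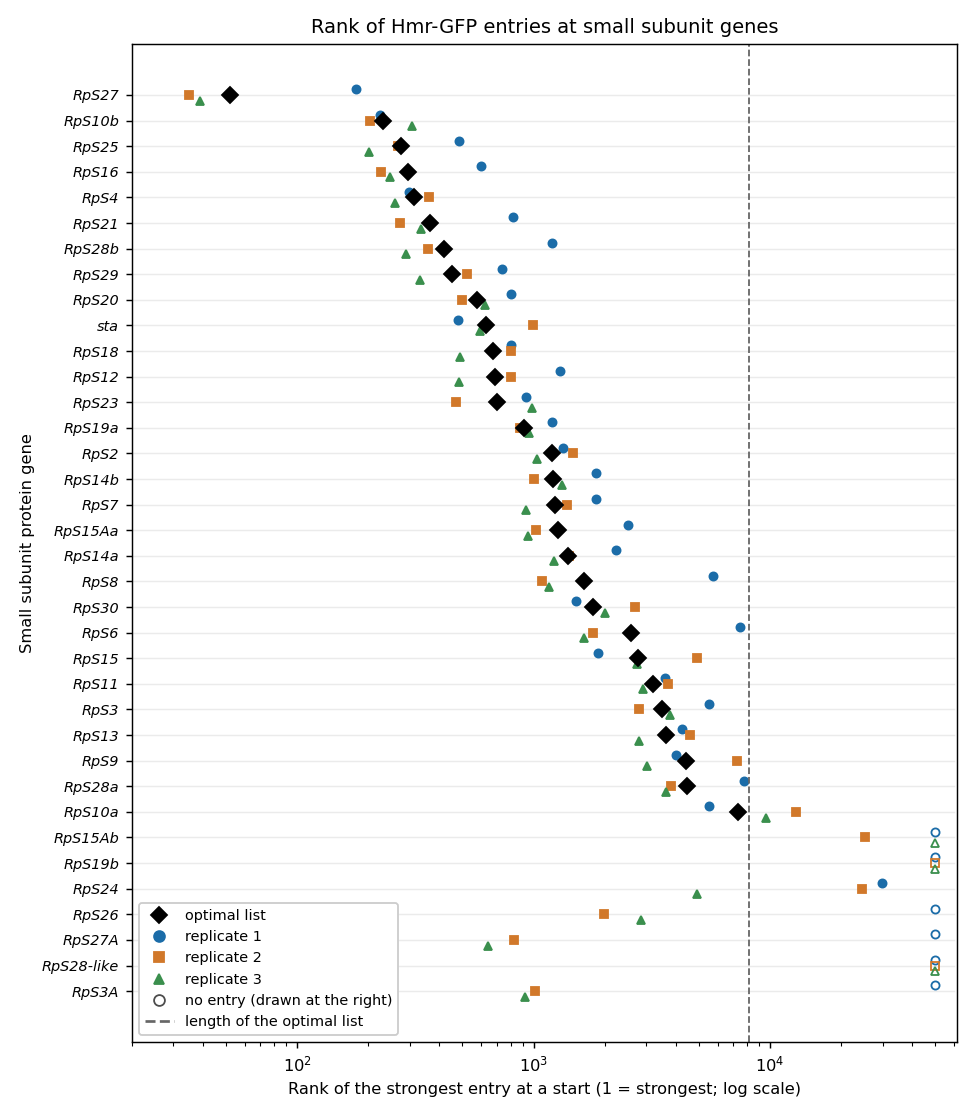
Rank (log scale, 1 = strongest) of the strongest entry within 250 bp of a start for 36 small subunit genes, in the optimal list (diamonds) and in the lists of replicate 1, 2 and 3; open symbols at the right mark lists with no entry, and the dashed line marks rank 8131. RpS27 leads at rank 52, and RpS26, RpS27A and RpS3A have entries in replicates 2 and 3 but none in replicate 1.

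Of the other genes with a summit, 13 spanned ranks 673 to 4430 and signals of 257 to 830. They include RpS6, the target of S6 kinase, at rank 2584, and RpS3 and RpS18, for head proteins, at ranks 3503 and 673. RpS12, whose protein is known for a part in cell competition between Minute and normal cells, had rank 690, and 1290, 805 and 482 in replicates 1, 2 and 3. RpS30, whose protein is made as a fusion to a ubiquitin-like domain, had rank 1781. Their summits lay between 85 bp upstream and 39 bp downstream of a start.

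Members of duplicated families differed in their peaks. There were 6 pairs of genes that share a number and differ by the letters a and b, and in 5 of them the same member ranked higher in 3 of 3 replicates. The copies of every pair except RpS14 lie apart on different chromosomes. All the bases around their starts were unique in the genome when read in runs of 32, apart from RpS15Ab with 88.9% unique.

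RpS10b, described above at rank 232, stood above RpS10a, at rank 7298. The entries at RpS10a had ranks 5534, 12917 and 9630 in the replicates. RpS28b, at rank 419, stood above RpS28a, at rank 4471, whose entries had ranks 7777, 3797 and 3645. In both pairs the replicates of the copies did not overlap.

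Of the RpS19 and RpS15A copies, 1 in each pair had no optimal summit. RpS19a had rank 912, and 1203, 881 and 958 in replicates 1, 2 and 3. RpS19b, a copy known for expression in the germ line, had no entry within 250 bp of its start in any list, and the nearest optimal summit lay 894 bp away. RpS15Aa had rank 1273, and 2502, 1026 and 950 in the replicates. RpS15Ab had 1 entry, at rank 25228 in replicate 2, and its nearest optimal summit lay 10650 bp away. RpS28-like, a further copy in the RpS28 family, had no entry in any list, with the nearest optimal summit 734 bp away.

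The RpS14 copies stand in tandem on the X chromosome, and each had a summit of its own. The starts lie 1156 bp apart, with 221 bp between the end of RpS14a and the start of RpS14b. RpS14a had rank 1393, and 2222, 1408 and 1226 in replicates 1, 2 and 3. RpS14b had rank 1208, and 1842, 1005 and 1319 in the replicates. The ranks overlapped, and RpS14a stood above RpS14b in 1 of 3 replicates.

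**Figure D3:**
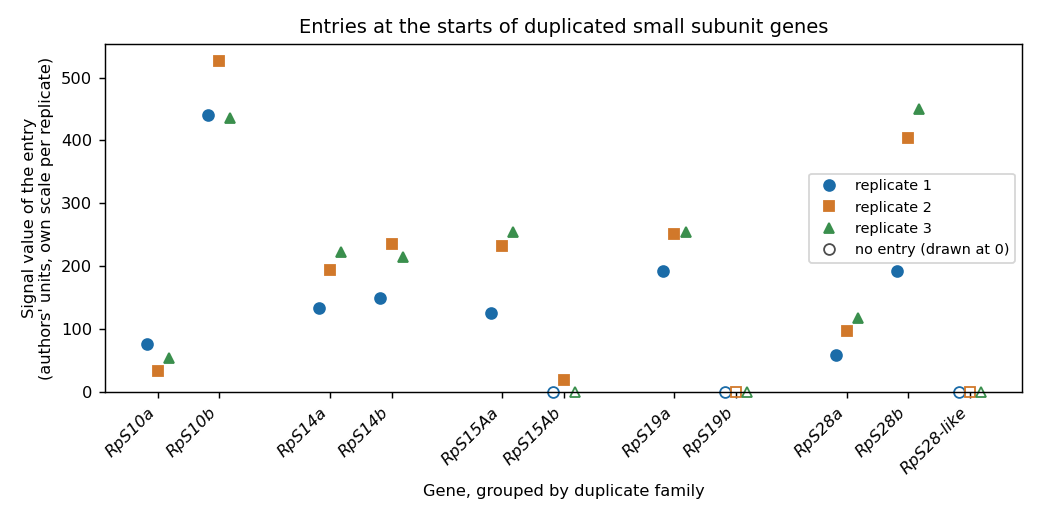
Signal value (authors' units, on a scale of its own in each replicate, so that symbols compare within 1 replicate) of the strongest entry within 250 bp of a start for 11 genes in 5 duplicated families, with open symbols at 0 where a list had no entry. RpS10b, RpS15Aa, RpS19a and RpS28b stand above their copies in all 3 replicates, and RpS14a and RpS14b overlap.

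The promoters of the copies are shown in the same way for the RpS14 and RpS19 pairs. RpS14a lies at chrX:7933652-7933771, RpS14b at chrX:7934808-7934927 and RpS19a at chrX:16637804-16637923, all on the plus strand. RpS19b lies at chr3R:23933501-23933620 on the minus strand. Capitals mark the TCT initiator, the DRE and the sequence of 10 letters as before. RpS19b holds none of them in this window.
RpS14a: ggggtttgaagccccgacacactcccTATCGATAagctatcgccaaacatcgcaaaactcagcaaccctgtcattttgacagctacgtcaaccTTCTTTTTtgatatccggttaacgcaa
RpS14b: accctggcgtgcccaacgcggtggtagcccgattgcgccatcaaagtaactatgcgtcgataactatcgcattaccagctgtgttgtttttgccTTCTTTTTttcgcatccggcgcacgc
RpS19a: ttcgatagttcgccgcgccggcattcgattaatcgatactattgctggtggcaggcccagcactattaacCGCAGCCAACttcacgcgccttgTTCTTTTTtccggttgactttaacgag
RpS19b: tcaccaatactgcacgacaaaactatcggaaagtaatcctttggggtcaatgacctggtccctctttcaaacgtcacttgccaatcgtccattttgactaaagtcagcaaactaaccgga

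Of the 7 genes without an optimal summit, 3 had strong entries in replicates 2 and 3. RpS27A, whose protein is made as a fusion to ubiquitin, had an entry of rank 829 (signal 262) in replicate 2, 76 bp upstream of its start. In replicate 3 it had rank 641 (signal 309), 47 bp upstream. Neither replicate 1 nor the pooled list had an entry within 250 bp, and the nearest optimal summit lay 20332 bp away. RpS26, for a protein at the exit of the messenger RNA, had rank 1989 in replicate 2 and 2857 in replicate 3, both 71 bp upstream, and no entry in replicate 1 or the pooled list. RpS3A, the only small subunit gene on chromosome 4, had rank 1017 in replicate 2, 62 bp upstream, and 925 in replicate 3, 29 bp upstream. It had no entry in replicate 1 and a pooled entry at rank 17164, 213 bp upstream.

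Genes with such entries and no optimal summit were counted over the whole genome too. Of the 33 small subunit genes with an entry among the 8131 strongest in at least 2 replicates, 3 lacked an optimal summit (9.09%). The count was 2 of 46 for large subunit genes (4.35%), namely RpL9 and RpL10, and 429 of 3403 for all protein-coding genes (12.6%). Why replicate 1 and the pooled list lacked these entries was not tested. The other genes without an optimal summit were RpS15Ab, RpS19b and RpS28-like, described above, and RpS24. RpS24 had pooled rank 11257, and ranks 29792, 24524 and 4910 in replicates 1, 2 and 3.

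The 3 promoters with strong entries in replicates 2 and 3 are shown in the same form. RpS27A lies at chr2L:10408262-10408381 on the plus strand, RpS26 at chr2L:18443199-18443318 on the minus strand and RpS3A at chr4:67178-67297 on the minus strand. The RpS26 stretch follows the annotated start with the initiator. Its entries lay 71 bp upstream of the other annotated start, so their summits lie outside the stretch. Capitals mark the TCT initiator, which RpS27A and RpS26 hold in overlapping copies and RpS3A does not hold.
RpS27A: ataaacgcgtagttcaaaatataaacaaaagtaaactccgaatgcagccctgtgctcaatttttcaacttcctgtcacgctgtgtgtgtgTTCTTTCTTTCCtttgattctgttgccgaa
RpS26: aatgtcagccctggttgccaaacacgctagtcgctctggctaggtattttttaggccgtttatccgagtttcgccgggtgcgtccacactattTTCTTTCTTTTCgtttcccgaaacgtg
RpS3A: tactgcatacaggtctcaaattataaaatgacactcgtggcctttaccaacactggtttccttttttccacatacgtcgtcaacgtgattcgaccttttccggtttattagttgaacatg

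The summits lay close to the starts. In the 32 small subunit genes the median position was 26.5 bp upstream of the nearest start (151 bp upstream to 39 bp downstream), against 33 bp upstream in large subunit genes and 86 bp upstream over all protein-coding genes with a summit. Within 50 bp of the start lay 22 of the 32 summits (68.8%), against 60.0% in large subunit genes and 26.3% over all protein-coding genes. Upstream of the start lay 26 of the 32 (81.2%), against 83.3% over all protein-coding genes.

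Positions in the replicates were close to each other in most genes. They were read in the 33 genes, RpS24 included, with an entry within 250 bp of a start in all 3 replicate lists. Each position was measured from the start nearest to it, which can differ between replicates. The SD of this position over the 3 replicates had a median of 14.4 bp and was at most 20 bp in 19 of the 33 genes. It ranged from 4.58 bp to 61.8 bp. The same spread was not measured over all protein-coding genes, so no share of theirs can be set beside it. The summit of sta lay 17, 29 and 32 bp upstream in replicates 1, 2 and 3. The summit of RpS27 lay 15 bp downstream, 5 bp upstream and 6 bp downstream. The entry of RpS6 was the most spread, at 107 bp downstream in replicate 1 and at the start itself in the other replicates.

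The summits nearest to the limit of 250 bp were far inside it. RpS10a had its summit 151 bp upstream of the start, RpS20 125 bp and RpS13, for a protein of the body, 113 bp upstream. The RpS20 summit lay 121, 148 and 101 bp upstream in replicates 1, 2 and 3. The RpS13 summit, at rank 3630, lay 122, 131 and 115 bp upstream and ranked 4239, 4592 and 2804. The RpS10a summit lay 156, 190 and 128 bp upstream. Outside the limit, the nearest were RpS28-like at 734 bp, RpS19b at 894 bp and RpS3A at 1567 bp, so no gene stood close to the limit.

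**Figure D4:**
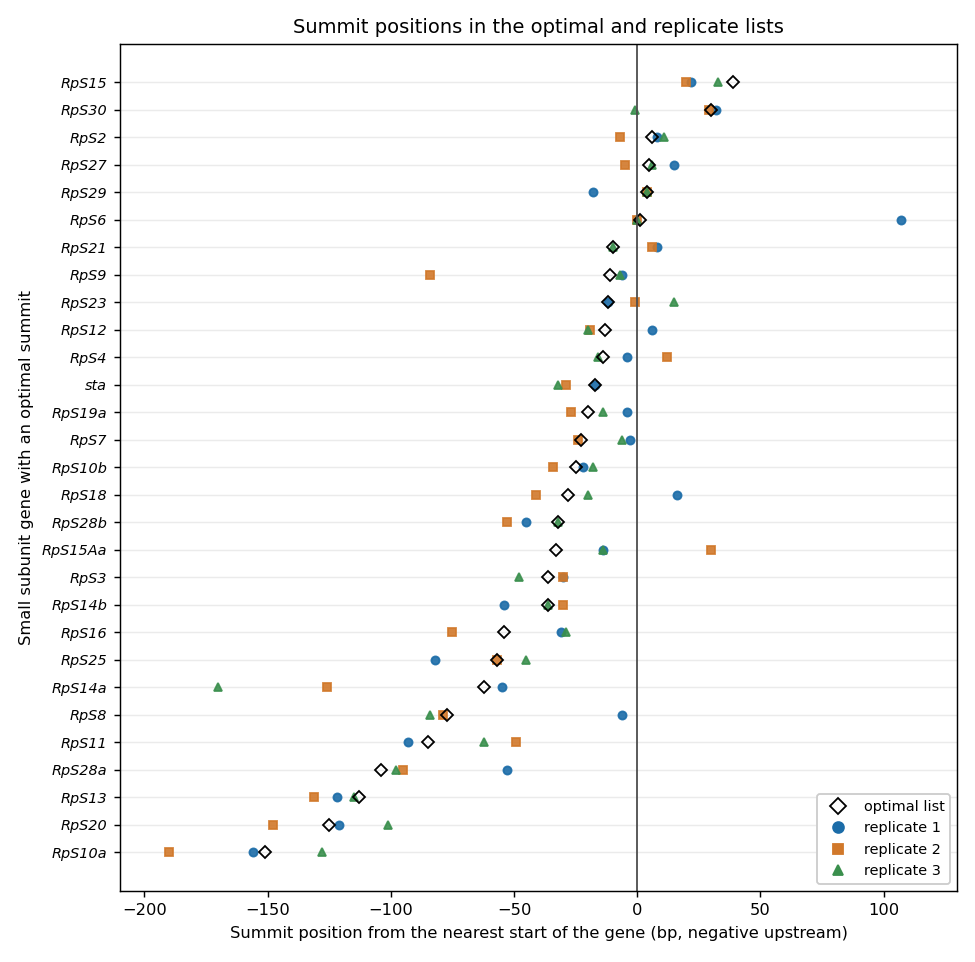
Position of the summit (bp from the nearest start of the gene, negative upstream) in the optimal list and in replicates 1, 2 and 3 for 29 small subunit genes with an optimal summit. The optimal summits lie between 151 bp upstream and 39 bp downstream, 20 of them within 50 bp of the start.

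Some summits lay in reach of another gene as well, and their number depends on the reach. In 8 of 32 genes (25%) the summit also lay within 250 bp of a start of another gene, against 39.8% over all protein-coding genes with a summit. Within 100 bp it was 4 (12.5%, against 18.3%), and within 500 bp it was 16 (50%, against 51.6%). At 250 bp, the other gene was protein-coding in 6 cases, namely CSN8 at RpS13, CG17271 at RpS20, CG4820 at RpS25, Nup37 at RpS27, Axn at RpS28a and inc at sta. Head-to-head partners, meaning protein-coding genes on the other strand with a start within 500 bp upstream, stood at 15 of the 39 genes (38.5%, against 27.4% of all protein-coding genes). The share with such a partner was 40.7% in large subunit genes. Introns of 13 small subunit genes held small nucleolar RNA genes, which direct modification of ribosomal RNA. This was 33.3%, against 29.6% of large subunit genes and 0.581% of all protein-coding genes. Introns of the small subunit genes held 43 small nucleolar RNA genes in all.

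The TCT initiator stood at many of the small subunit genes, counted over all their annotated starts. It lay within 20 bp of a start in 27 of 39 genes (69.2%), against 83.3% of large subunit genes and 2.42% of all protein-coding genes, and in none of the mitochondrial small subunit genes. With the outermost start of each gene only, it lay at 14 of the 39 (35.9%), against 1.51% of all protein-coding genes. In the 40 matches the C of the initiator lay from 0 to 14 bp downstream of the annotated start. The window bounds the upper end, since the whole match had to lie within 20 bp of the start. Of the 27 genes with the initiator, 24 had an optimal summit. Of the 12 without it, 8 had one. Among genes of neither subunit that hold the initiator, 89 of 266 had an optimal summit (33.5%). The genes with a summit but without the initiator included RpS25 at rank 275, RpS20 at rank 578 and sta at rank 628. The median rank was 1221.5 in the 24 genes with it and 945 in the 8 genes without it, with ranges that overlapped.

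Of 8 promoter sequences searched on both strands within 100 bp of the summits, the core of the BEAF-32 site and the DRE were held by the most small subunit summits. Both were held more often than over all summits at protein-coding genes, though not they alone. The DRE, the palindrome TATCGATA bound by the factor Dref, was held by 10 of 32 small subunit summits (31.2%), against 24.4% of large subunit summits and 8.85% of the 2644 summits at protein-coding genes. In promoters of 300 bases it was held by 13 of 39 small subunit genes (33.3%), against 9.36% of all promoters. The genes with it at the summit were RpS6, RpS7, RpS10b, RpS12, RpS13, RpS14a, RpS15Aa, RpS25, RpS29 and RpS30. Its middle lay 2 bp from the summit in RpS14a and RpS25 and 89 bp away in RpS30. The core of the BEAF-32 site, CGATA, is part of every DRE, and 22 of 32 summits held it (68.8%), against 66.7% of large subunit summits and 42.6% of all.

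Each of the other sequences was held by at most 7 of the 32 summits. GGTCACACT, the site of the zinc-finger protein M1BP, was held by 3 summits (9.38%), those of RpS9, RpS15 and RpS23, against 6.77% of all. TATAAA was held by 3 summits (9.38%), against 30.1%, and GAGAG by 2 (6.25%), against 23.0%. The E-box CAGCTG was held by 5 summits (15.6%), against 14.5%. The motif known as Ohler 7 was held by 7 summits (21.9%), against 4.44% of large subunit summits and 10.9% of all, and Ohler 6 by 1 (3.12%), against 2.04%. The ranks of summits with and without the DRE overlapped, with medians of 1254 and 1056. A match is a run of letters in the window searched, and no binding of Dref, BEAF-32 or M1BP was measured here.

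Genes outside the symbol rule that join or assemble the small subunit were read in the same way. Rack1, a small subunit protein that the symbols do not include, had a summit 23 bp upstream at rank 444, matched in 3 replicates. Of 9 genes for assembly of the subunit, 3 had one (33.3%, against 23.4% of protein-coding genes). These were Fib, the methyltransferase of small nucleolar RNA particles, at rank 1186, RIOK1, a kinase of late assembly, at rank 2997, and hoip, a protein of small nucleolar RNA particles, at rank 7113. The summit of Fib also lay within 250 bp of a start of CG3085. The genes without a summit were Nop56, nop5, bys, RIOK2, wcd and kz, and none of the 9 held a TCT initiator. By chromosome, a summit was present in 9 of 9 small subunit genes on X (21.9% of protein-coding genes there), 11 of 12 on 3R (23.8%), 4 of 4 on 3L (24.8%), 5 of 7 on 2R (23.6%), 3 of 6 on 2L (22.9%) and 0 of 1 on chromosome 4 (3.75%).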

How the data were processed

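Peak lists of Hmr-GFP ChIP-seq were used, 1 for each of 3 replicates, 1 for the replicates pooled and 1 optimal list, in dm6. Each relaxed list was called against a control, and the optimal list was kept from them by the irreproducible discovery rate, as the deposited text files record. The sources used here name no caller, aligner or threshold for it. The signal value of each deposited peak is the authors' own and was used only within a list, since depth is unknown. Column 10 of the deposited lists gave the summit. Each relaxed list held 30000 entries, and the 8131 optimal peaks were exactly the 8131 strongest pooled entries. The lists in dm3 were not used here. No column belonged to other samples.

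Gene starts came from Ensembl release 115 (FlyBase identifiers) and sequence from the Release 6 genome. A gene was called when a summit lay within 250 bp of any annotated start, and its strongest summit was kept. Counts and medians were set beside those of all 13945 protein-coding genes with Python 3.11.15 and numpy 2.4.6, and recovery of planted summits was tested on simulated data. No test was made. Some genes enter the counts but are not reported here by name. Values in every replicate were printed for the 10 strongest genes, those without a summit, the duplicated genes that are named, sta and the 3 genes nearest to the limit on each side. The genes and lists were chosen with earlier results of these data known. The replicates share a control and a line, so their spread may be technical. Alternatives are the distance, the starts counted, the list, the match and the sequence windows.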

Additional observations from a re-analysis of the deposited data

How the results depend on the processing

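The count of 32 small subunit genes with an optimal summit ranged from 28 to 35 over the alternatives that recount it. Distances of 100, 500 and 1000 bp gave 28, 32 and 34 genes, against 13.4%, 28.1% and 31.8% of all protein-coding genes. The pooled list gave 34 (against 36.3%), and each replicate list alone 31, 33 and 35 (against 22.4%, 23.5% and 27.6%). The outermost start only gave 31, for which no share over all genes is given. Without the 8 genes whose summit had another gene in reach, 24 remained, which is a remainder and not a recount. The count matched in all replicates ranged from 28 to 32. Leaving out a replicate changed only the match, since the optimal list itself came from all 3 replicates. It gave 30 each time, which was fixed in advance because no gene was matched in exactly 2 replicates. The median rank, 1204, lay between 1056 and 1204 under the alternatives. The median position of the summit was 20 bp upstream (-20) with the outermost start only, against -26.5 with every annotated start. The 8 genes that share a summit numbered 4 with another start within 100 bp and 16 within 500 bp. The 27 genes with a TCT initiator numbered 14 with the outermost start only, where fewer starts are searched, 18 and 30 with windows of 10 and 50 bp (1.09% and 5.28% of all protein-coding genes) and 31 with a shorter consensus (6.78%). The replicate lists alone, the shorter consensus, unique starts and summits with no other gene in reach were alternatives chosen after seeing the data. Depth is unknown for every list, so weak or missing entries, such as those at RpS24 and RpS15Ab, cannot be given a limit. No paired analysis was possible because there was 1 group.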

Other observations

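A sequence of 10 letters, CGCAGCCAAC, was held within 100 bp of 5 of the 32 small subunit summits (15.6%), those of RpS27, RpS21, RpS28b, RpS19a and RpS6. It was held by 2 of 45 large subunit summits (4.44%), those of RpL27A and RpL28, and by 3 of the 2567 other summits at protein-coding genes (0.117%). The 6 chromosomes hold 328 copies of it on both strands together. It was chosen after its values were seen, as the run of 10 letters with the greatest excess in share at small subunit summits over the 2567 other summits, so the first share is a description of the choice, and the large subunit summits took no part in it. In RpS19a, RpS28b and RpS21 the letters TTCACG follow it directly, as the printed promoters show, and in RpS27 it lies on the strand opposite to the gene. Its middle lay 5 bp from the summit in RpS19a, 3 bp in RpS28b, 28 bp in RpS21, 22 bp in RpS27 and 24 bp in RpS6. No factor was assigned to it here.

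Sites that were strong in replicates 2 and 3 and absent from the pooled list, as at RpS27A, were counted over the genome. Of the 1595 sites among the 2000 strongest entries of both replicate 2 and replicate 3, 39 had no pooled entry within 500 bp (2.45%), and 35 of these had no entry in replicate 1 either. The count was 1 of 1434 sites (0.0697%) for replicates 1 and 2 and 9 of 1499 (0.600%) for replicates 1 and 3. The cause was not tested.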
